A study of Mus musculus with 12 samples.

Results

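Interferons are cytokines that cells release on contact with viruses and bacteria, and in the intestine they act on epithelial and immune cells alike. Type I interferons bind the IFNAR1 and IFNAR2 receptor chains and lead to a complex with STAT2 and IRF9 that binds the interferon stimulated response element (ISRE), whereas interferon gamma binds IFNGR1 and IFNGR2 and acts through the gamma activated site (GAS). Among the genes these factors switch on are the MHC class I genes, whose heavy chains pair with B2M and present peptides cut by the immunoproteasome and carried by TAP1 and TAP2. The genes described here are 45 of this system, chosen by symbol from the 36047 genes measured in small intestine (SI) eosinophils: 4 interferon receptor genes, 7 IRF and STAT regulators, 3 RNA sensors, 21 interferon induced effectors, and 10 genes of class I antigen presentation. All 45 were found, and 44 of them had an average normalized count above 10 and were tested. Ifitm6 was not, with 0 to 21.9 normalized counts per library.

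The eosinophils were taken from lamina propria cells of the proximal SI in wild type female C57BL/6J mice, as the sample labels give them, and their age is not stated there. They were sorted as live CD45+ CD11b+ SiglecF+ MHCII− Ly6G− cells into α4β7+, α4β7− CD22−, and CD22+ subsets, which the study takes as approximately younger, intermediate, and older eosinophils, from following cells labelled with BrdU, a nucleoside that is built into the DNA of dividing cells. α4β7 is an integrin of gut homing and CD22 a lectin. Each subset was sequenced as 4 libraries, each from pooled mice and 3 ng of RNA, and no other treatment or allele was involved. The deposited values are normalized counts, which summed to between 14286474 and 16915755 per library, with 19760 to 21960 genes above 0.

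The eosinophil label was checked against marker genes. Siglecf lay between 6884 and 8594 normalized counts in the 12 libraries, Ccr3 between 10103 and 28671, and Alox15 between 9917 and 33896, so these defining markers were present in every library. The granule protein genes were low, with Epx at 58.7 to 173 and Prg2 at 69.2 to 407. Markers of plasma cells were also present, with Igha at 8282 to 28536, and 8 markers of B and plasma cells summed to 17188 to 57455 per library. The sums were 1431 to 6966 for 10 epithelial markers, 9366 to 11640 for 8 macrophage and monocyte markers, of which Adgre4 made up most, and 10160 to 13504 for 6 markers of stroma and endothelium, of which Pecam1 made up most. Markers of dendritic cells summed to 207 to 436 and those of plasmacytoid dendritic cells to 477 to 1135. Class II RNA was present although cells with surface MHCII were gated out, with Cd74 at 1518 to 4454. The sums for 8 T and NK cell markers ranged from 1328 to 2647 in α4β7+, from 728 to 1182 in α4β7− CD22−, and from 1108 to 1753 in CD22+, whereas neutrophil and mast cell markers summed to at most 186, with S100a8, Elane, Camp, Mcpt2, and Mcpt8 at or under a floor of 3 reads. In bulk RNA, fewer cells of a type and less RNA per cell cannot be told apart.

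Promoters are shown because the response elements named above can be read in them. RefSeq promoter windows on GRCm38.p6, from 250 bases before to 50 after the transcription start, were found for 38 of the 45 genes. The ISRE core GAAANNGAAA, or TTTCNNTTTC on the other strand, was present in 16 of them (42.1%) and in 3.99% of the 27025 genes with a window. The GAS core TTCNNNGAA, which reads the same on both strands, was present in 10 of the 38 (26.3%) and in 9.55% of all genes. The ISRE core was found in 11 of 17 effectors, 2 of 2 RNA sensors, 2 of 7 regulators, 1 of 8 class I genes, and 0 of 4 receptors. A match describes letters in the window and not a binding site, and a missing match does not show that an element is absent.

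Below are the 250 bases before the start of 6 genes on which the results turn, 5′ to 3′ on the gene's own strand, with matches to either core in capitals. Isg15 (chr4:156200819-156201068, minus strand) has 3 overlapping ISRE cores, the first of which begins 78 bases before the start. Stat2 (chr10:128270248-128270497, plus strand) has 1, on the other strand. Gbp2 (chr3:142620413-142620662, plus strand) has an ISRE core and Irf1 (chr11:53769764-53770013, plus strand) a GAS core, and the levels of both varied together between libraries. B2m (chr2:122147437-122147686, plus strand) has an ISRE core. H2-K1 (chr17:34000348-34000597, minus strand) has no match to these exact letters, which does not show that it lacks such an element. Its RNA level differed between subsets much as that of B2m did.
Isg15: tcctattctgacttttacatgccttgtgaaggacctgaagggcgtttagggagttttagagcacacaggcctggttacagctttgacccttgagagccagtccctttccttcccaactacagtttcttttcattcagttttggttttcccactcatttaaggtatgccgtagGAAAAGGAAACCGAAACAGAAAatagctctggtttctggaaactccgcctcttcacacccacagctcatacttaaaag
Stat2: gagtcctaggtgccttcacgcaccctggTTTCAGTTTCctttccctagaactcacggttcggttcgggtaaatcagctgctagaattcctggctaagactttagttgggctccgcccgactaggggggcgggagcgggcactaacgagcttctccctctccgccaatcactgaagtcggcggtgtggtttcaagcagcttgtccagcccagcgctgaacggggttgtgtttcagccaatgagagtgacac
Gbp2: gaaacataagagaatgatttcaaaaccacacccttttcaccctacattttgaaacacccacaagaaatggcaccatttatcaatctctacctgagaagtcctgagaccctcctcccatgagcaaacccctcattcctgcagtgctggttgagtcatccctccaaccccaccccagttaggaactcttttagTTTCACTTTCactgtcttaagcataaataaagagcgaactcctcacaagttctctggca
Irf1: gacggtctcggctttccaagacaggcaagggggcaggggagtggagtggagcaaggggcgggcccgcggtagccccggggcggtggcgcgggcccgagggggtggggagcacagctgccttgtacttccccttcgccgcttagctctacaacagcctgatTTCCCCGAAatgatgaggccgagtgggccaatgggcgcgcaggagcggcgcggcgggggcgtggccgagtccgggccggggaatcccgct
B2m: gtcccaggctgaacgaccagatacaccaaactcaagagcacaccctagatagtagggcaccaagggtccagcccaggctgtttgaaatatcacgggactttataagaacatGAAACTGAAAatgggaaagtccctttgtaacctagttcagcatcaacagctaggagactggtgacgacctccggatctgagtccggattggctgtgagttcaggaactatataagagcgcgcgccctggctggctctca
H2-K1: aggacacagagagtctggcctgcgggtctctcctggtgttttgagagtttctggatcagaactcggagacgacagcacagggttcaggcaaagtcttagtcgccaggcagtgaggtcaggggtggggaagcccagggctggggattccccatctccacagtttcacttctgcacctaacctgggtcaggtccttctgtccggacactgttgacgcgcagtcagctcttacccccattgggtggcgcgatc

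**Figure D1:**
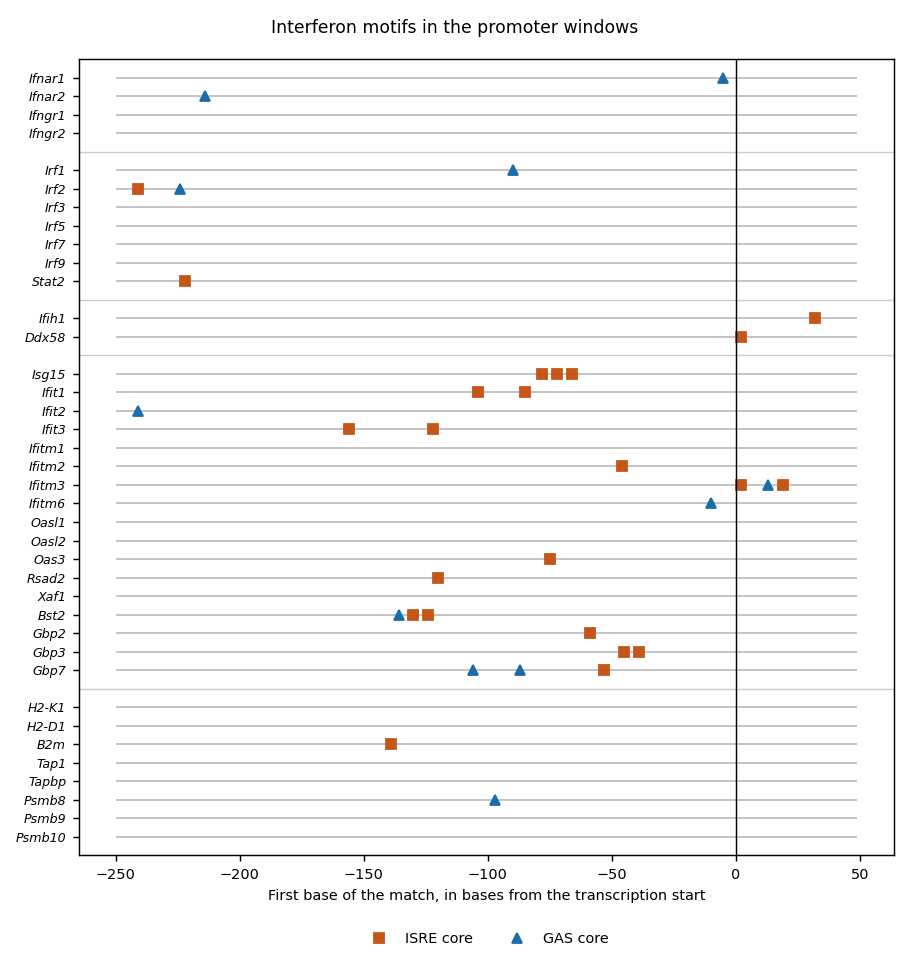
Positions of the ISRE core (squares) and the GAS core (triangles) in the promoter windows of 38 genes, grouped by role. The horizontal axis is the distance in bases of the first base of a match from the transcription start, and grey lines span each window. The ISRE cores of Isg15, Ifit1, and Gbp2 lie before the start, and those of Ifih1, Ddx58, and Ifitm3 after it.

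Calls required that limma's adjusted p, over the 15249 genes tested, be no higher than 0.05 and that the means on the log2(normalized count + 1) scale differ 1.5-fold or more. Between α4β7− CD22− and α4β7+, 2 of the 44 genes tested were higher (Stat2, Ifitm1) and 3 lower (H2-K1, H2-D1, B2m), beside 3.7% of all genes called higher and 4.35% called lower. Between CD22+ and α4β7+, 2 were higher (Stat2, Ifih1) and 6 lower (Isg15, Usp18, Ifnar2, H2-K1, H2-D1, B2m), beside 5.6% and 6.39% of all genes. Between CD22+ and α4β7− CD22−, limma called 0 of the 44 genes, beside 0.21% of all genes higher and 0.393% lower, on the adjusted p alone 1 gene passed (Ifnar2), and at an unadjusted p under 0.05 there were 4 higher and 7 lower, beside 9.67% of all genes in either direction. These calls fell on 9 different genes, and the other 36, among them the untested Ifitm6, had none. The share of all genes called in any comparison was not counted. The 9 therefore cannot be set against the shares above, which are per comparison and direction. The median log2 fold change of the 44 genes was −0.14, −0.10, and −0.0007 in these comparisons, and that of all genes tested was 0.003, 0.014, and −0.0014. The 3 comparisons share libraries, so that their calls are not independent. Rescaling of the libraries to equal totals, an alternative chosen after seeing the data, moved the median of all genes to 0.10 and 0.17 in the comparisons with α4β7+ and the calls with it, to 3 of the 44 genes higher and 3 lower in α4β7− CD22− and 6 higher and 3 lower in CD22+, each against α4β7+, beside 5.38% and 3.31%, and 9.91% and 4.52%, of all genes.

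**Figure D2:**
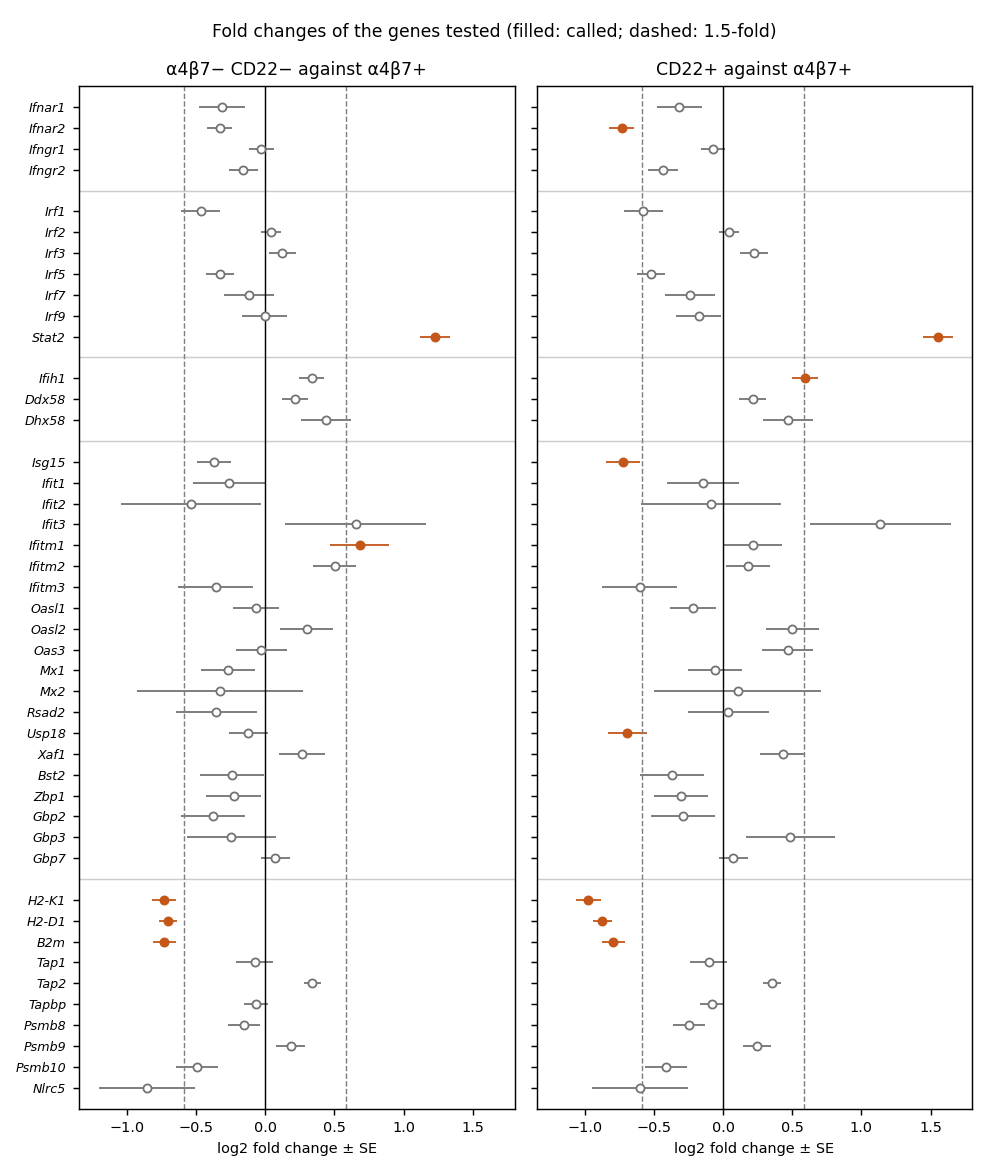
log2 fold change ± SE of the 44 genes tested, for α4β7− CD22− against α4β7+ (left) and CD22+ against α4β7+ (right), grouped from top to bottom as receptors, regulators, RNA sensors, effectors, and class I genes. Filled points are called genes and dashed lines mark 1.5-fold. Stat2 lies farthest to the right in both panels at 1.22 and 1.55, and H2-K1, H2-D1, and B2m lie together to the left of the dashed line.

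Within the subsets, the 3 libraries numbered 4 stood apart for these genes. α4β7+ replicate 4 had the highest value of its subset for 27 of the 44 genes, α4β7− CD22− replicate 4 for 19, and CD22+ replicate 4 for 23, whereas these libraries were highest for 24.1%, 25.1%, and 26.3% of all genes tested. The median deviation of the 44 genes from their subset mean was 0.20, 0.16, and 0.16 (log2) in these libraries and from −0.09 to −0.02 in the other 9. Marker genes of other cell types were also highest in these libraries, but not the same lists in each. All 7 class II genes were highest in replicate 4 of α4β7− CD22−, where they summed to 6914 against 3757 to 3935, and 6 of 7 in that of CD22+, at 9219 against 3509 to 5338, whereas in α4β7+ replicate 4 it was 0 of 7, at 5303 against 3448 to 5945. Of 8 macrophage and monocyte markers, 5 and 7 were highest in replicate 4 of α4β7− CD22− and CD22+ and 2 in that of α4β7+, whereas their sums of 10073 and 11010 lay within those of the other libraries. For B and plasma cells these counts were 7, 6, and 2 of 8, for stroma and endothelium 5, 5, and 0 of 6 (with sums of 12173 and 11101 below those of the other libraries), and for T and NK cells 5, 5, and 1 of 8, with T and NK sums of 1182 against 728 to 1015 in α4β7− CD22− and 1753 against 1108 to 1439 in CD22+. For epithelium they were 4, 0, and 5 of 10, with a sum of 5880 against 2712 to 5317 in α4β7+, and for dendritic cells 3, 5, and 1 of 6, with a sum of 380 against 256 to 338 in α4β7+ and 436 against 236 to 322 in CD22+. C1qa, a complement gene of macrophages, was at 301 and 388 in replicate 4 of α4β7− CD22− and CD22+ and at 105 to 158 and 125 to 237 in the others of these subsets. In replicate 4 of α4β7− CD22− the epithelial sum of 3872 was also the highest, against 1785 to 3746. So were its sums of 54681 for B and plasma cells, against 17188 to 51348, and 614 for plasmacytoid dendritic cells, against 477 to 585. In replicate 4 of CD22+ these sums lay within those of the other libraries, as did the B and plasma and the plasmacytoid sums in that of α4β7+. The part of these markers in the deviations was not tested. The labels do not say what a replicate number shares between subsets. Results are therefore also given without replicate 4 of every subset, an alternative chosen after seeing the data. Without it, 2 genes were called higher (Stat2, Dhx58) and 3 lower between α4β7− CD22− and α4β7+, beside 2.93% and 3.54% of all genes. Between CD22+ and α4β7+, 5 were higher (Stat2, Ifih1, Dhx58, Oasl2, Oas3) and the 6 named above lower, beside 4.84% and 6.29%.

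**Figure D3:**
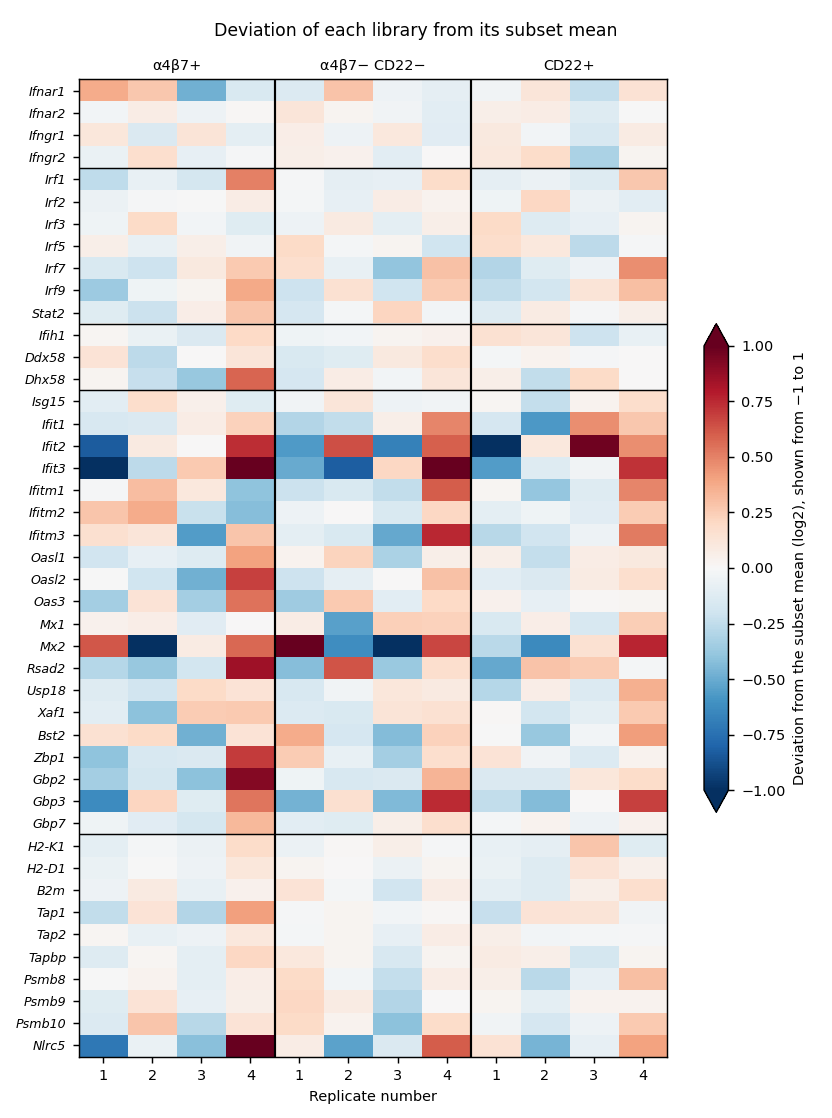
Deviation of each library from the mean of its subset (log2, colour scale from −1 to 1) for the 44 genes tested, with the subsets side by side and replicates 1 to 4 in each. Red cells, for values above the subset mean, are most frequent in the columns of replicate 4, where the medians over the 44 genes are 0.20, 0.16, and 0.16.

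Ifnar2, which encodes a chain of the type I interferon receptor, decreased from subset to subset. Its normalized counts were 678, 728, 666, and 696 in α4β7+, 599, 559, 535, and 509.9 in α4β7− CD22−, and 433, 438, 381, and 414 in CD22+. No library of a subset overlapped with those of another. The fall from α4β7+ to CD22+ was 1.66-fold (log2 −0.73 ± 0.09 SE, limma adjusted p = 2.59e-05). Each of the steps between neighbouring subsets stayed under 1.5-fold, at −0.33 (adjusted p = 0.0211) between α4β7− CD22− and α4β7+ and −0.40 (adjusted p = 0.0452) between CD22+ and α4β7− CD22−. After rescaling to equal totals the fall of −0.57 (adjusted p = 0.000181) was just under 1.5-fold.

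Ifngr2, a chain of the interferon gamma receptor, was measured at 1009.7, 1188, 1002, and 1048 normalized counts in α4β7+, at 987, 977, 883, and 954 in α4β7− CD22−, and at 845, 891, 629, and 797 in CD22+. The α4β7+ libraries lay above all others, and the log2 fold change from α4β7+ to CD22+ was −0.43 ± 0.11 (adjusted p = 0.0085), under 1.5-fold. Ifngr1, its partner chain, had subset means of 2306 ± 225, 2258 ± 160.2, and 2188 ± 175 (SD, n = 4) with overlapping libraries. Ifnar1 had means of 1085 ± 283, 855 ± 120.1, and 853 ± 101, and its libraries overlapped as well. Of the 4 receptor genes, Ifnar2 alone was called lower in CD22+ than in α4β7+, beside 6.39% of all genes.

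Stat2, the STAT that is used by type I and not by type II interferon receptors, had the largest called change of the 44 genes. It was measured at 896, 841, 1021, and 1182 normalized counts in α4β7+, at 2031, 2257, 2645, and 2242 in α4β7− CD22−, and at 2618, 3028, 2844, and 2982 in CD22+. Every library of the other subsets lay above the α4β7+ libraries, and the highest α4β7− CD22− library lay just above the lowest CD22+ library. Stat2 was 2.34-fold higher in α4β7− CD22− (log2 1.22 ± 0.11, adjusted p = 2.71e-06) and 2.93-fold higher in CD22+ (log2 1.55 ± 0.11, adjusted p = 1e-07) than in α4β7+. The difference of 0.33 between CD22+ and α4β7− CD22− did not pass (adjusted p = 0.248). Both calls were kept in every alternative run, and without replicate 4 of every subset the values were 1.33 and 1.62. Irf9, which binds DNA together with STAT2, had means of 1124 ± 239, 1113 ± 183, and 991 ± 179 normalized counts (SD, n = 4) and did not pass the test in any comparison.

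Irf1, a transcription factor induced by interferon gamma, passed the adjusted p in both comparisons with α4β7+ but not the 1.5-fold limit. Its normalized counts were 6234, 7074, 6588, and 10526 in α4β7+, 5350.3, 5061, 5087, and 6110.2 in α4β7− CD22−, and 4698, 4802, 4569.8, and 6008 in CD22+. Every α4β7+ library was above all others, the log2 fold changes were −0.47 and −0.58 (adjusted p = 0.0374 and 0.00835), and the latter was −0.50 without replicate 4 of every subset. It was called when α4β7+ replicate 1, 2, or 3 or CD22+ replicate 4 was left out, at −0.67 to −0.60. Without α4β7+ replicate 4 the values were −0.30 and −0.41 (adjusted p = 0.0722 and 0.0113). Irf5, a regulator of inflammatory cytokine genes, was measured at 1951, 1778, 1948, and 1826 in α4β7+, at 1704, 1471, 1521, and 1302 in α4β7− CD22−, and at 1471, 1402, 1089, and 1294 in CD22+. Again the α4β7+ libraries were the highest, with log2 fold changes of −0.33 and −0.52 (adjusted p = 0.0428 and 0.00174) that did not reach 1.5-fold. Irf2, Irf3, and Irf7, the last a main inducer of type I interferon genes, were not called, and their log2 fold changes against α4β7+ lay between −0.24 and 0.22.

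The 3 sensors bind viral RNA in the cytosol. Ifih1, which encodes MDA5, was measured at 1835, 1727, 1642, and 2077 normalized counts in α4β7+, at 2222, 2244, 2326, and 2362 in α4β7− CD22−, and at 3036, 2978, 2374, and 2601 in CD22+. The subsets did not overlap and followed each other upward. Ifih1 was 1.51-fold higher in CD22+ than in α4β7+ (log2 0.59 ± 0.09, adjusted p = 0.000256), a value next to the limit of 0.585. The call was lost with 4 of the 12 libraries left out in turn (α4β7+ replicates 2 and 3, CD22+ replicates 1 and 2), where the log2 fold change was 0.54 to 0.57 with an adjusted p of at most 0.0013. Between α4β7− CD22− and α4β7+ it was 0.34 (adjusted p = 0.0227), under 1.5-fold. Ddx58, which encodes RIG-I, was measured at 2618, 1989, 2398, and 2601 in α4β7+, at 2489, 2541, 2969, and 3129.9 in α4β7− CD22−, and at 2724, 2836, 2739.5, and 2769.8 in CD22+, where every library was above those of α4β7+, but at 0.21 (adjusted p = 0.143) it did not pass. Dhx58, which encodes LGP2, had means of 249 ± 78.5, 328 ± 28.2, and 336 ± 41.7. It was not called with all libraries, but it was without replicate 4 of every subset, at 0.59 (adjusted p = 0.0441) and 0.66 (adjusted p = 0.0172) against α4β7+, and without α4β7+ replicate 4 alone, at 0.63 and 0.66.

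Isg15, a ubiquitin-like protein attached to other proteins after interferon, had its lowest values in CD22+. It was measured at 340.1, 412, 378, and 336 normalized counts in α4β7+, at 276, 306, 273, and 275 in α4β7− CD22−, and at 224, 187, 227, and 250.3 in CD22+. The subsets did not overlap, and Isg15 was 1.65-fold lower in CD22+ than in α4β7+ (log2 −0.72 ± 0.12, adjusted p = 0.000493). The steps between neighbouring subsets, −0.37 (adjusted p = 0.0536) and −0.35 (adjusted p = 0.277), did not pass. Usp18, the protease that removes ISG15 and also restrains the type I receptor, was measured at 505, 483, 633, and 607 in α4β7+, at 454, 497, 549, and 539.7 in α4β7− CD22−, and at 281, 359, 311, and 438 in CD22+. The CD22+ libraries were below all others, and Usp18 fell 1.61-fold from α4β7+ to CD22+ (log2 −0.69 ± 0.14, adjusted p = 0.00238). After rescaling to equal totals these falls, −0.56 (adjusted p = 0.00323) and −0.53 (adjusted p = 0.0145), were under 1.5-fold. Of the Isg15 transcript, 75.8% is shared with other genes, so reads could be split between them, and of the Usp18 transcript 0%.

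Ifitm1, a membrane protein that blocks virus entry, was called higher in α4β7− CD22− than in α4β7+, on values that depended on single libraries. Its normalized counts were 719.9, 899, 779, and 547 in α4β7+, 1003, 1049, 981, and 1772 in α4β7− CD22−, and 856, 645, 773, and 1182 in CD22+. The α4β7− CD22− libraries were above those of α4β7+ without overlap, with replicate 4 far above the other 3, and the log2 fold change was 0.68 ± 0.21 (adjusted p = 0.0435). Without α4β7− CD22− replicate 4 it was 0.48 (adjusted p = 0.123), without α4β7+ replicate 4 it was 0.55 (adjusted p = 0.125), and without replicate 4 of every subset 0.34 (adjusted p = 0.119), and the call was lost in 7 of the 12 models with 1 library left out. Its neighbour on chromosome 7, Ifitm2, had 0.50 in the same comparison (adjusted p = 0.0463), under 1.5-fold, and was called at 0.59 and 0.62 without α4β7+ replicate 1 or 2, and Ifitm3 had −0.36 (adjusted p = 0.44). The 3 transcripts share 36.2%, 69.8%, and 52.1% of their length with other genes.

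The other effectors tested, 17 genes in all, were not called. Of these, 4 (Ifit1, Ifit2, Ifit3, Mx2) had means under 100 in every subset. The log2 fold change of 1.14 for Ifit3 in CD22+ against α4β7+ did not pass (adjusted p = 0.14), and without α4β7+ replicate 4 it was called at 1.52 (adjusted p = 0.0484). The Ifit3 transcript shares 97.4% of its length with Ifit3b, so reads could be split between them. Oas3, which makes the messenger that activates RNase L, was measured at 360.4, 501, 359.9, and 665 in α4β7+, at 349, 538, 415, and 513 in α4β7− CD22−, and at 650.5, 596, 638, and 641 in CD22+. Its CD22+ libraries were above those of α4β7− CD22− without overlap, but the difference of 0.50 did not pass (adjusted p = 0.332). Against α4β7+ it was 0.47 (adjusted p = 0.0897), and without replicate 4 of every subset it was called at 0.64 (adjusted p = 0.0285). Oasl2 likewise went from 0.50 (adjusted p = 0.0816) to 0.67 (adjusted p = 0.00372). Without α4β7+ replicate 4 alone, Oas3 and Oasl2 were called as well, at 0.65 and 0.73. Rsad2, Mx1, Bst2, Zbp1, Xaf1, Oasl1, Gbp3, Gbp7, and Gbp2, a guanylate binding protein that attacks pathogen vacuoles, had log2 fold changes between −0.38 and 0.49 against α4β7+, and those of Gbp2 were −0.38 and −0.29 with all libraries and −0.07 and 0.02 without α4β7+ replicate 4.

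**Figure D4:**
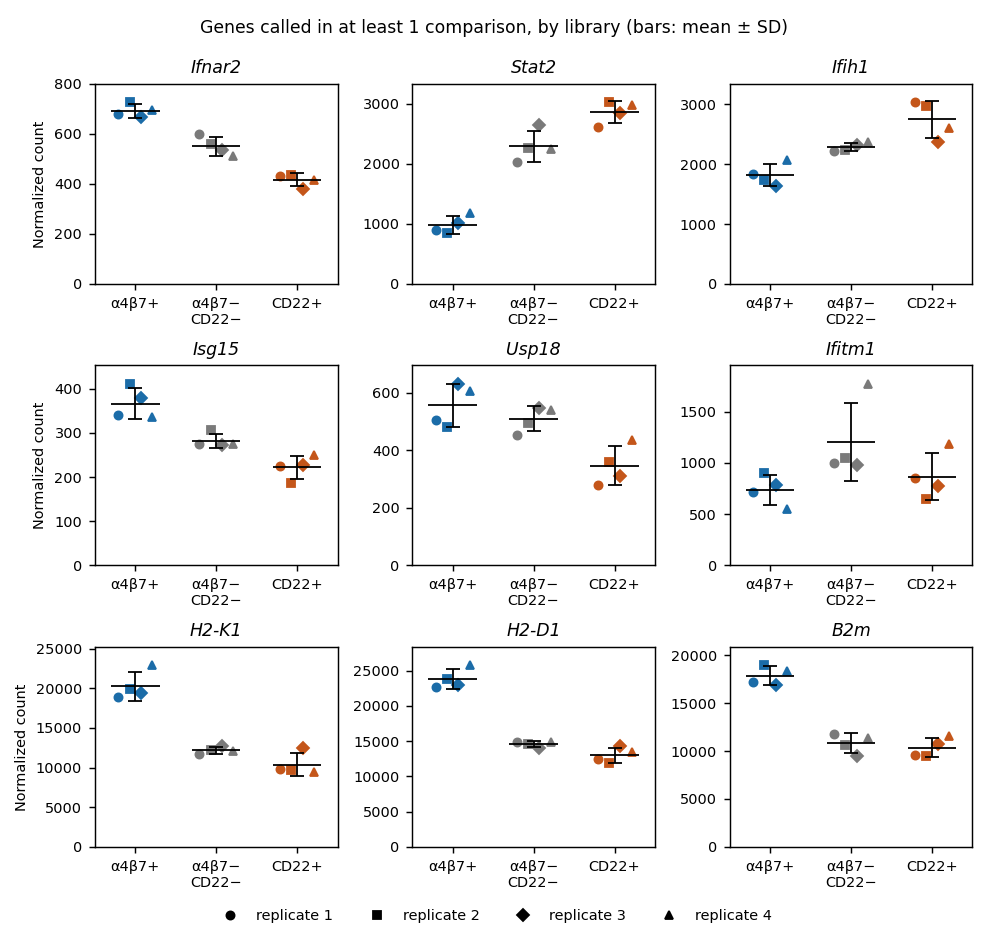
Normalized counts, by subset, of the 9 genes that were called in any comparison, with 1 symbol per replicate number and the mean ± SD (n = 4) in black. Stat2 and Ifih1 are lowest in α4β7+, Isg15, Usp18, and Ifnar2 are lowest in CD22+, Ifitm1 has 1 high library in α4β7− CD22− at 1772, and H2-K1, H2-D1, and B2m step down after α4β7+.

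H2-K1 and H2-D1, the classical class I heavy chains of this strain, and B2m, their light chain, were all lower in the later subsets. H2-K1 was measured at 18882, 19883, 19354, and 22919.5 normalized counts in α4β7+, at 11673, 12245, 12659.8, and 12087 in α4β7− CD22−, and at 9764, 9669, 12498, and 9481 in CD22+. H2-D1 was measured at 22714, 23759, 22968, and 25772 in α4β7+, at 14846, 14600.4, 14036, and 14904 in α4β7− CD22−, and at 12422, 11899, 14289.6, and 13430.2 in CD22+. B2m was measured at 17227, 18973, 16926, and 18398 in α4β7+, at 11809.6, 10622, 9435, and 11361 in α4β7− CD22−, and at 9628, 9444, 10716, and 11566 in CD22+. For all 3 genes every α4β7+ library was above every other library, and α4β7− CD22− and CD22+ overlapped.

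From α4β7+ to α4β7− CD22−, H2-K1 fell 1.66-fold (log2 −0.73 ± 0.09, adjusted p = 5.19e-05), H2-D1 1.63-fold (−0.70 ± 0.07, adjusted p = 5.74e-06), and B2m 1.66-fold (−0.73 ± 0.08, adjusted p = 3.06e-05). From α4β7+ to CD22+, the falls were 1.96-fold for H2-K1 (−0.97 ± 0.09, adjusted p = 1.47e-06), 1.83-fold for H2-D1 (−0.87 ± 0.07, adjusted p = 2.71e-07), and 1.73-fold for B2m (−0.79 ± 0.08, adjusted p = 6.19e-06). Between CD22+ and α4β7− CD22− the differences of −0.24, −0.17, and −0.06 did not pass (adjusted p = 0.324, 0.381, and 0.892). With quantile normalization, 5 of the 6 falls stayed below 1.5-fold, with log2 fold changes from −0.58 to −0.52 and adjusted p from 0.000407 to 0.00189, and H2-K1 in CD22+ kept its call at −0.69. The H2-D1 transcript shares 73.5% of its length with H2-K1 and the H2-K1 transcript 58.25% with H2-Q4, whereas the B2m transcript shares 0% with other genes. Beside these falls, Ccr3 and Alox15, which mark eosinophils, were also lower in CD22+ than in α4β7+ (log2 −1.22 and −1.46, adjusted p = 4.45e-08 and 7.37e-09) and Siglecf was not called (−0.04), and the sums of T and NK cell markers differed as given above. Their part in the class I result was not tested.

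The genes that load class I molecules were not called in any comparison. Tap2, a chain of the peptide transporter, was measured at 2601, 2442, 2479, and 2766 in α4β7+, at 3208, 3315, 3072, and 3429 in α4β7− CD22−, and at 3408, 3219, 3242, and 3250.5 in CD22+. Its α4β7+ libraries were the lowest, with log2 fold changes of 0.34 and 0.35 (adjusted p = 0.00211 and 0.000995) that stayed under 1.5-fold. Tap1, its other chain, had −0.08 (adjusted p = 0.768) and −0.10 (adjusted p = 0.657), and Tapbp, the chaperone tapasin, −0.07 and −0.08 (adjusted p = 0.676 and 0.572).

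The immunoproteasome subunits were not called either. Psmb9 was measured at 798, 952, 820.4, and 904 in α4β7+, at 1134, 1044, 804, and 987 in α4β7− CD22−, and at 1046, 961, 1052, and 1049.7 in CD22+, where all libraries were above those of α4β7+, and the log2 fold change was 0.24 (adjusted p = 0.117). Psmb10 was measured at 996, 1329, 903, and 1208 in α4β7+, at 891, 797, 587, and 886 in α4β7− CD22−, and at 802, 732, 793, and 986 in CD22+. Its α4β7− CD22− libraries were below those of α4β7+, at −0.49 (adjusted p = 0.0411), under 1.5-fold. Psmb8 had −0.15 and −0.25 (adjusted p = 0.428 and 0.151). Nlrc5, the transactivator of class I genes, had means of 544 ± 369.8, 270.1 ± 91.5, and 317 ± 78.8, with α4β7+ replicate 4 at 1089 and the other α4β7+ libraries at 286 to 448, and its log2 fold changes of −0.86 and −0.60 did not pass (adjusted p = 0.121 and 0.259). Without α4β7+ replicate 4 they were −0.45 and −0.20 (adjusted p = 0.306 and 0.664).

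Levels per kilobase of exon set the genes beside each other. B2m, H2-D1, and H2-K1 ranked 1, 2, and 3 among the 45 genes in every subset, with 20792, 9230, and 6896 normalized counts per kilobase in α4β7+ and 12022, 5045, and 3524 in CD22+. Stat2 moved from rank 28 in α4β7+ (166 per kilobase) to rank 13 in CD22+ (484), and Isg15 from rank 14 (485) to rank 19 (294). Mx2, which the annotation gives as a polymorphic pseudogene, was last in every subset, at 3.16 to 3.86 per kilobase. These levels are a description, since exons of all isoforms enter the length.

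Between libraries of the same subset, genes of this set had higher correlations than the average pair of genes. Over the 12 libraries, the mean pairwise correlation of deviations from the subset means was 0.20 for the 44 genes, 0.31 for the effectors, 0.43 for the class I genes, 0.42 for the RNA sensors, 0.29 for the receptors, 0.05 for the regulators, and 0.0011 for all genes tested. Irf1, Gbp2, and Nlrc5, each known to be induced by interferon gamma, had pairwise correlations of 0.917 to 0.924. α4β7+ replicate 4 held 1369.7 normalized counts of Gbp2 against 545 to 641 in the other α4β7+ libraries. H2-K1 and B2m, which fell together between subsets, had a correlation of 0.07 within them, whereas H2-D1 had 0.72 with H2-K1 and 0.70 with B2m. These are descriptions over 12 points, paralogs share reads, and the 3 libraries numbered 4 enter each of them.

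The remaining genes of the pathway were counted from lists chosen with earlier results of these data known. Of 60 other interferon induced genes tested, 2 were called higher and 8 lower in α4β7− CD22− than in α4β7+, and 3 higher and 6 lower in CD22+ than in α4β7+, beside 3.7% of all genes higher and 4.35% lower, and 5.6% and 6.39%. The median log2 fold changes were −0.03 and 0.02. Gbp8 and Gbp4, guanylate binding proteins, were higher in both, and Gbp8 was measured at 115, 173, 125, and 137 in α4β7+, at 525, 458, 459.5, and 604 in α4β7− CD22−, and at 861, 795, 758, and 826 in CD22+. The subsets did not overlap, and Gbp8 rose in all 3 comparisons, by log2 1.90, 2.57, and 0.67 (adjusted p = 4.14e-07, 5.83e-09, and 0.0275). Gbp4 rose by 1.52 and 1.78 against α4β7+. Gbp6 of the same family was lower in α4β7− CD22− than in α4β7+ (−0.75, adjusted p = 0.0287) and was not called in CD22+ (−0.05), and Gbp2, Gbp3, and Gbp7 were not called.

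Cxcl10, a chemokine that attracts T cells, was measured at 393, 445, 357, and 309.8 in α4β7+, at 76.5, 98.2, 53.3, and 81.0 in α4β7− CD22−, and at 45.1, 74.4, 61.1, and 98.4 in CD22+. The α4β7+ libraries lay above the rest, and the log2 fold changes were −2.29 and −2.46 (adjusted p = 1.47e-05 and 3.27e-06). Slfn1, Slfn5, Trim30a, and Ly6e fell in both comparisons with α4β7+, by log2 values from −1.05 to −0.60, and Ifi213 fell by 1.08 in α4β7− CD22−. Of 17 other interferon signalling genes tested, Cgas, the DNA sensor, was called higher in both comparisons (0.60 and 0.74, adjusted p = 0.0469 and 0.0107), beside 3.7% and 5.6% of all genes. Irf2bp2, a partner of IRF2, was the 1 called lower, in CD22+ (−0.72, adjusted p = 1.26e-06), beside 6.39% of all genes. Ifnb1 was listed at 0 in all 12 libraries, and Ifng had an average of 12.2 normalized counts.

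Of 19 other class I antigen presentation genes tested, limma called 0 higher and 2 lower in α4β7− CD22−, and 0 higher and 5 lower in CD22+, each against α4β7+, beside 4.35% and 6.39% of all genes called lower. Their median log2 fold changes were −0.26 and −0.42. At an unadjusted p under 0.05 there were 0 and 1 higher and 11 and 12 lower, beside 27.1% and 32% of all genes in either direction. The 5 were H2-Q4, H2-Q6, H2-Q7, Psme2, and Psmb5. H2-Q7, a nonclassical class I heavy chain, was measured at 5076, 5944, 6442, and 8938 in α4β7+, at 2282, 2467, 3149, and 2301 in α4β7− CD22−, and at 1904, 1735, 2873, and 1677 in CD22+. Its α4β7+ libraries were the highest, and it fell by 1.35 and 1.69 on the log2 scale (adjusted p = 0.000141 and 8.28e-06). H2-Q6 fell by 1.40 and 1.77. H2-Q4 shares sequence with H2-K1, and these genes belong to 1 family, so their counts are uncertain. Of 7 class II genes, whose protein was gated out at the cell surface, H2-DMa alone was called, higher in both comparisons with α4β7+ (0.74 and 0.64), with 45.9 to 136 normalized counts, beside 3.7% and 5.6% of all genes called higher.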

How the data were processed

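RNA of 12 libraries, 4 per eosinophil subset, was measured by RNA sequencing with a stranded total RNA kit. The deposited signal values are normalized counts, which the authors made with Trimmomatic 0.39, kallisto 0.46.1 on GRCm38, and DESeq2 1.38.2, as their processing notes name them. Kallisto divides reads between transcripts with shared sequence, so counts of paralogs are uncertain, and DESeq2 scaling assumes that most genes do not change. Between 30.1% and 63.9% of the low values lay within 5% of a whole number of reads, and the rest did not, which leaves whole reads unrecovered and count models unused. A floor of 3 reads corresponded to 2.55 to 3.48 normalized counts, is approximate, and covers counting error only. All per-library columns were matched to a library.

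The test was limma 3.58.1 (R 4.3.3), fitted to log2(normalized count + 1) of the 15249 genes with a mean above 10 in 1 model of the 3 subsets with a variance trend. This scale understates the fold changes of low genes. The Benjamini-Hochberg adjustment ran over all genes of a comparison, and a call needed an adjusted p no higher than 0.05 together with a change of 1.5-fold or more. Libraries are called replicates as in the labels, which name them biological replicates. Replicate numbers recur in each subset, and no source says that they mark shared mice. Deviations of same-numbered libraries correlated at over 0.1 in every pair between CD22+ and α4β7− CD22−, where the block changed no call of these genes. Between α4β7− CD22− and α4β7+ the correlations were 0.043 to 0.137, and the block lost Ifitm1 and gained Nlrc5. Between CD22+ and α4β7+ they were −0.0586 to 0.1823.

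The 45 genes and all gene lists were chosen with earlier results of these data known, so that no list was tested as a set. Values in all 12 libraries are given for the genes called, and for genes whose libraries did not overlap between subsets and whose mean was at least 100. Of the other pathway genes called, at most 8 per list with the largest changes are named. Gbp6, Ifng, and Ifnb1 fall outside this rule and were chosen after their values were seen. Positions, exon lengths, and overlaps came from the GENCODE annotation of GRCm38, where 35968 of 36047 identifiers matched, and shared transcript sequence from BLAST 2.17.0 hits of 75 bases or more with 90% identity or more. Promoters are from RefSeq. Python 3.11.15 with pandas 2.3.3 and matplotlib 3.10.9 made the tables and figures. Alternatives changed the pseudocount (0.1, 10), the filter (none, 50), the scaling (75th percentile, quantiles), the variance trend (none), the fold limit (none), the model (compared subsets only, replicate block), and the libraries (each left out in turn), with 2 more chosen after seeing the data, equal totals and replicate 4 of every subset left out.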

Additional observations from a re-analysis of the deposited data

Results flagged for a closer look

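In 13 of the 135 groups of 4 libraries (45 genes in 3 subsets), 1 library lay far from the other 3, by a rule that flags about 1 group in 20 by chance. In α4β7+, replicate 4 was high for Gbp2 (1369.7 normalized counts, the others 545 to 641), Rsad2 (366, the others 156 to 179), and Oasl1 (262, the others 173 to 186), and replicate 3 was low for Bst2 (95.9, the others 148 to 153). In α4β7− CD22−, replicate 4 was high for Ifitm1 (1772, the others 981 to 1049) and replicate 2 for Isg15 (306, the others 273 to 276). In CD22+, replicate 4 was high for Irf1 (6008, the others 4569.8 to 4802) and Ifitm2 (1254, the others 973 to 1021). CD22+ replicate 3 was high for H2-K1 (12498, the others 9481 to 9764), and without it the log2 fold change of H2-K1 between CD22+ and α4β7+ was −1.07 in place of −0.97. CD22+ replicate 2 was high for Irf2 (4254, the others 3440.1 to 3577) and low for Oasl1 (144, the others 177 to 182) and Psmb9 (961, the others 1046 to 1052). CD22+ replicate 1 was high for Tap2 (3408, the others 3219 to 3250.5).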

How the results depend on the processing

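No log2 fold change of the genes of the set that were called in any setting reversed its direction. Of 13 calls of a gene in a comparison, 11 were kept with each library left out, 4 in every other alternative, and 3 in all of them. Between α4β7− CD22− and α4β7+, Ifitm1 lost its call without the filter, without the trend, and with the replicate block. With 1 library left out, Ifitm1 lost its call or Ifitm2 or Dhx58 gained one, as given above. H2-K1, H2-D1, and B2m lost theirs with quantile normalization. Shares of all genes called in these settings are not given, so these changes are not shown to be particular to the set. On the adjusted p alone, 5 genes of the set were higher and 7 lower, with 2265 genes called in all. It called 3223 genes between CD22+ and α4β7+. Between CD22+ and α4β7− CD22− it called 164, among them 1 of the set, which was lower. Between CD22+ and α4β7+, 6 genes of the set (Stat2, Ifih1, Ifit3, Oasl2, Oas3, Dhx58) were called higher without α4β7+ replicate 4, beside 5.39% of all genes. Without replicate 4 of every subset there were 5, beside 4.84%. The median of the set ranged from −0.2162 (without CD22+ replicate 3) to −0.0311. With equal totals, 6 were higher and 3 lower, beside 9.91% and 4.52% of all genes. The median of the set was then 0.0615, beside a median of all genes of 0.17. Between CD22+ and α4β7− CD22−, 54 genes in place of 92 were called without the trend and 45 without replicate 4 of every subset, and the genes of the set called lower ranged from 0 to 1 with 1 library left out (Usp18, without CD22+ replicate 4). Rescaling by the 75th percentile gave 960 higher and 893 lower between CD22+ and α4β7+ in place of 854 and 975, and equal totals 1511 and 690.

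The replicate block lost Ifitm1 and gained Nlrc5 between α4β7− CD22− and α4β7+. It gained Ifit3 and Ifitm3 between CD22+ and α4β7+ and changed no call of the set between CD22+ and α4β7− CD22−. Calls of all genes under the block are not given here, so these changes are not shown to be particular to the set. Libraries with the same number deviated together with correlations of 0.043 to 0.137, −0.0586 to 0.1823, and 0.1353 to 0.2033 in the 3 comparisons in the order of the report. Each library correlated best with its own number in the last. In the first, every α4β7+ library and 2 of the α4β7− CD22− libraries did so. The causes of these changes were not tested. Genes under 100 normalized counts, such as Ifit1, Ifit2, Ifit3, and Mx2, rest on few reads, and a change there was not detectable unless large.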

Other observations

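Among the signalling genes outside the 45, Jak2, a kinase of the interferon gamma receptor, was measured at 5797, 5297, 5547, and 5428 normalized counts in α4β7+, at 6916, 7105, 7128, and 6741 in α4β7− CD22−, and at 7678, 8454, 7211, and 7286 in CD22+. The subsets did not overlap, and against α4β7+ the log2 fold changes were 0.34 (limma adjusted p = 0.00203) and 0.47 (adjusted p = 6.9e-05), both under 1.5-fold. Socs1, an inhibitor of these kinases, had 0.33 (adjusted p = 0.152) and 0.43 (adjusted p = 0.0417). Jak2 and Socs1 were chosen after their values were seen.

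Cxcl9, a chemokine induced by interferon gamma, was highest in replicate 4 of every subset, at 233, 145, and 218 normalized counts, and lay between 23.9 and 97.9 in the other 9 libraries. Cxcl9 was likewise chosen after its values were seen, and what the libraries numbered 4 share was not tested.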
